A study of Mus musculus with 19 samples.

Results

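The 38 genes described here encode chaperones, folding enzymes, translocon subunits, degradation factors and stress sensors of the endoplasmic reticulum (ER). They were taken as the rows of the deposited expression table whose gene symbol equals one of 38 listed names, and all 38 names were found among its 29861 rows. RNA was sequenced from 19 mouse pancreatic ductal organoid lines, which are epithelial cultures that grow in Matrigel as hollow spheres. They comprised 6 tumor, 6 PanIN and 7 normal lines, where PanIN stands for pancreatic intraepithelial neoplasia, a precursor lesion of ductal adenocarcinoma. Tumor lines came from adenocarcinomas of mice with Pdx1-Cre, a recombinase active in progenitor cells of the pancreas, and Trp53LSL-R172H, an allele of the p53 gene that Cre switches on. PanIN lines came from ducts of pancreas that held PanIN, in mice with Pdx1-Cre and without the Trp53 allele. Normal lines came from ducts of wild-type pancreas with normal histology. The mouse background was C57B6/J in every group, and each group held both sexes, with 3 female and 3 male tumor lines, 3 female and 3 male PanIN lines, and 5 female and 2 male normal lines. All groups were grown in one complete medium, which held N-acetylcysteine, nicotinamide, EGF, FGF-10, gastrin, noggin, R-spondin and a blocker of TGF-beta receptors. Because the labels do not tie lines to individual mice or litters, the p-values below rest on the spread from line to line.

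Secreted and membrane proteins are folded in the ER with the help of chaperones, disulfide isomerases and oxidases, and proteins that fail to fold are sent back to the cytosol for degradation. When unfolded proteins build up, the membrane sensors IRE1 (gene Ern1), PERK (gene Eif2ak3) and ATF6 start the unfolded protein response: IRE1 splices Xbp1 mRNA into the template for an active transcription factor, PERK slows protein synthesis while favouring Atf4 translation, and ATF6 is cut to release a transcription factor. These factors raise the expression of chaperones and of genes for ER-associated degradation. In the pancreas the response is best known from acinar cells, which secrete digestive enzymes, while duct cells secrete fluid, bicarbonate and mucins.

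The promoters of these genes are shown first because several of them carry the sequence elements through which the response acts. The ER stress response element (ERSE) reads CCAAT, any 9 bases, CCACG, where the transcription factor NF-Y binds the first part and ATF6 or XBP1 the second. A shorter form, ERSE-II, reads ATTGG, any 1 base, CCACG, and the unfolded protein response element (UPRE) was searched as TGACGTGG. Promoter windows of 300 bases (250 before to 50 after the transcript start) were taken from RefSeq for build GRCm38.p6, while the expression values were made with build mm9. A window was matched for 30 of the 38 members, all but Atf6, Creb3l1, Hyou1, Manf, Erp29, Derl1, Sec61a1 and Ssr2. On either strand, ERSE was present in 10 of these 30 genes (33.3%), against 39 of all 32851 promoter windows in the table (0.119%). By window, 10 of the 34 windows of members held it, and these are among the 39. The members were listed as genes of this response, so the difference is no independent test of the element. ERSE-II was present in 2 members, against 12 of all windows (0.0365%), and UPRE in 1 member, against 222 of all windows (0.676%). No 2 of the matches overlapped each other. A match is a description of these letters and not a measured binding site. The bases before the start are given for 3 chaperone or cofactor genes, on the strand of the gene, with the fixed letters of ERSE in capitals (read from the opposite strand, the element appears as CGTGG, 9 bases, ATTGG). The Hspa5 stretch lies at chr2:34771840-34772089 (plus strand), with ERSE at -65 to -47 from the start. The Hsp90b1 stretch lies at chr10:86705445-86705694 (minus strand) and holds ERSE at -212 to -194 and, on the opposite strand, at -107 to -89. The Creld2 stretch lies at chr15:88819396-88819645 (plus strand), with ERSE on the opposite strand at -126 to -108.
Hspa5: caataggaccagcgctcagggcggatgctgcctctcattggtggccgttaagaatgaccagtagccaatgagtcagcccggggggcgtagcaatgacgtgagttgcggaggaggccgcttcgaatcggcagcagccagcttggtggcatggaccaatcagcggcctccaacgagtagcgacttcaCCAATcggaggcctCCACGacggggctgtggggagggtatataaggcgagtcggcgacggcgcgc
Hsp90b1: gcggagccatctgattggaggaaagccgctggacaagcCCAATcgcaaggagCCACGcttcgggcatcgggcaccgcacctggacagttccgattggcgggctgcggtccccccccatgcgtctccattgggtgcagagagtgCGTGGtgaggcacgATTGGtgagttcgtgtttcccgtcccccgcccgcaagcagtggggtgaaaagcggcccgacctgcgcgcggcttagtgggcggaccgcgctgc
Creld2: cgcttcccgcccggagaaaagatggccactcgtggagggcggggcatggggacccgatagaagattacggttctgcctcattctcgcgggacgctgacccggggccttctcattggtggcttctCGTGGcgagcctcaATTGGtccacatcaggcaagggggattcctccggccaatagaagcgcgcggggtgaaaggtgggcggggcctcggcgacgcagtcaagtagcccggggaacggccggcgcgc

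The remaining matches are given as the element alone, written on the strand where it reads forward, with the fixed letters in capitals, to show how far the 9 bases between them vary. The Dnajb11 element spans bases 8 to 18 of the transcript, and the others lie before the start, as the map of promoter elements shows.
Calr, ERSE: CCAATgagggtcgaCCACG
Canx, ERSE: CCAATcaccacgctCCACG
Dnajc3, ERSE: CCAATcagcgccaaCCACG
Derl3, ERSE: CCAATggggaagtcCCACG
Ero1lb, ERSE: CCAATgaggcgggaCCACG
Pdia6, ERSE: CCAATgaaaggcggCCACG
Syvn1, ERSE: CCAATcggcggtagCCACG
Dnajb11, ERSE-II: ATTGGcCCACG
Herpud1, ERSE-II: ATTGGgCCACG
Txndc5, UPRE: TGACGTGG

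**Figure D1:**
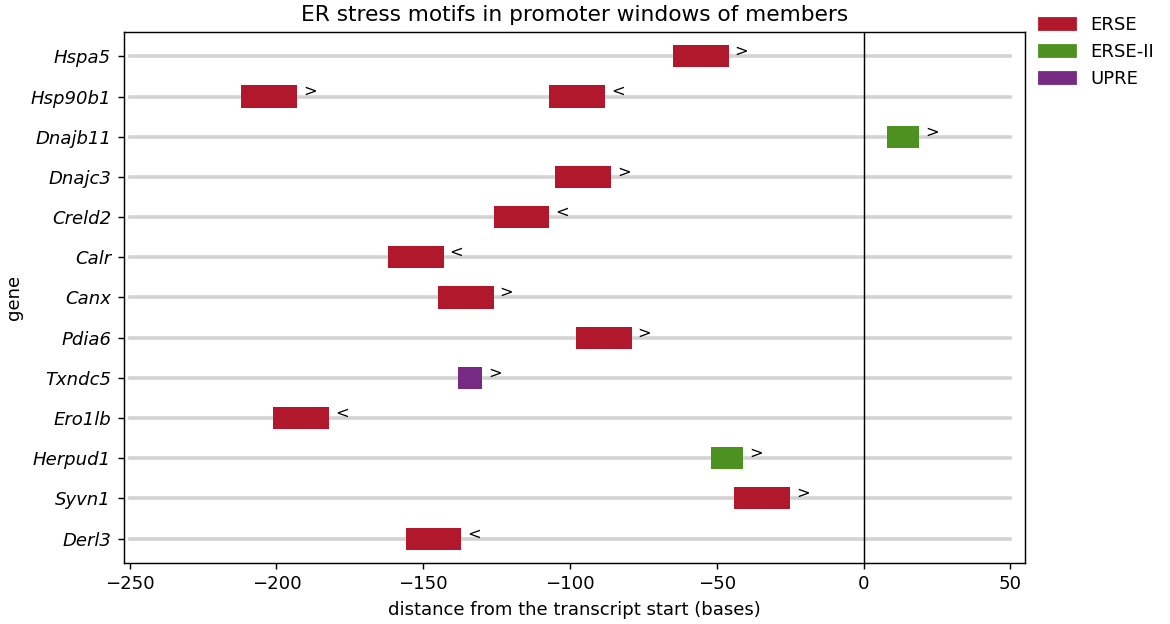
Positions of ERSE (red), ERSE-II (green) and UPRE (purple) in the promoter windows of 13 members; the x axis is the distance from the transcript start in bases, each row is 1 gene, grey lines span the searched window, and the mark beside a box points right for the strand of the gene and left for the opposite strand. Every element but that of Dnajb11 lies before the start, and Hsp90b1 carries 2.

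Expression was measured as TPM, a transcript abundance corrected for transcript length and scaled to the same total in every line, so levels can be compared between genes but the number of reads behind a value is unknown. The values of the lines were compared as log2(TPM + 1) with limma, fitted over all 12500 genes that reached a TPM of 1 in at least 6 lines. A gene was called when its Benjamini-Hochberg adjusted p was below 0.05. Each line had 11938 to 12437 genes at 1 TPM or more. All 11 duct epithelial markers looked at (such as Krt19, Epcam and Sox9) were present, with a summed level of 7573 to 9411 TPM in tumor, 8017 to 12607 TPM in PanIN and 10552 to 15678 TPM in normal lines. Of 11 acinar markers only Cela1 reached 1 TPM in any line, and the list summed to at most 3.27 TPM in any line. Endocrine, fibroblast and endothelial lists had no marker at 1 TPM and summed to at most 0.36 TPM in a line. Immune markers summed to 1.49 to 3.94 TPM in tumor, 2.75 to 3.65 TPM in PanIN and 4.41 to 8.28 TPM in normal lines. The B and plasma cell list reached 192.5 TPM in a line, mainly through Sdc1, which epithelia also express. The part of these marker levels in the results below was not tested. A group of 11 rows that pass this filter and lack a comparison of the authors in the deposited table took 16.3% to 25.4% of the TPM in tumor lines, 22.6% to 27.0% in PanIN lines and 23.3% to 28.6% in normal lines. Library identifiers in the column names fall into 3 series, which are treated as a possible batch: the first holds tumor 4, PanIN 1 to 3 and normal 5 to 7, the second tumor 5, 7 and 8, PanIN 4 and normal 10 and 11, and the third tumor 3 and 9, PanIN 5 and 6 and normal 12 and 13.

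Of the 38 members, 37 passed the expression filter. Derl3, a paralog of Derl1 and Derl2 in ER-associated degradation, did not, with 0.160 to 0.300 TPM (median 0.270) in tumor lines, 0.140 to 0.380 TPM (median 0.190) in PanIN lines and 0.0400 to 1.09 TPM (median 0.390) in normal lines. It was thus near 0 in all groups and was not tested.

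Between tumor and normal lines, 10 members rose and 2 fell, with differences of at most 0.90 in size on the scale of log2(TPM + 1). Those that rose were the ER chaperones and cofactors Sdf2l1, Creld2, Dnajb11 and Manf, the degradation genes Edem1, Edem2 and Derl2, the translocon-associated genes Ssr1 and Ssr2, and the transcription factor gene Creb3l1. Those that fell were the sensor genes Atf6 and Eif2ak3. The 12 called genes were 32.4% of the 37 tested members, and 32.2% of all 12500 tested genes were called in this comparison (17.8% higher and 14.4% lower), so the share called among members was near the background. The median log2 difference of the members was 0.17, against 0.04 over all tested genes. Above 0 lay 30 of 37 members and 6968 of all 12500 genes. All tumor lines exceeded all normal lines for 3 members, Edem1, Edem2 and Ssr2, and no member had all tumor lines below all normal lines. Over all tested genes 7.26% had such groups without overlap, 2.9% with tumor above and 4.36% with tumor below. Bulk RNA does not separate fewer cells of a type from less RNA per cell. When TPM was rescaled without the 11 rows named above, the split became 8 higher and 4 lower, and with quantile normalization 8 higher and 3 lower. Over all genes the calls were then 1463 higher and 2451 lower of 12882 when rescaled, and 1991 higher and 1960 lower of 12500 with quantile normalization. These scalings moved the median of all genes by -0.08 and -0.02, the members' median under them was 0.08 and 0.07, and Manf and Derl2 were not called under either. Above 0 then lay 25 and 22 of 37 members, and the median over all tested genes was -0.04 and 0.02. With the identifier series as a block, 8 members were called higher and none lower (29.04% of all tested genes called): Atf6, Eif2ak3, Manf and Derl2 were then not called.

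Between tumor and PanIN lines, 1 member rose, the chaperone gene Hspa5, and none fell. This was 2.7% of the tested members, where 1.6% of all tested genes were called (0.392% higher and 1.21% lower). In direction, 33 of 37 members and 7586 of all 12500 genes lay above 0. The median log2 difference of the members was 0.21, against 0.06 over all tested genes. In limma, 20 members had an unadjusted p below 0.05, against 3713 of all 12500 genes. The count depended on single lines: 16 members were called higher without PanIN 6 and 14 without tumor 4, when 22.7% and 19.2% of all tested genes were called, and 4 without normal 11, when the share over all tested genes was 6.27%.

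Between PanIN and normal lines, 1 member rose, Edem2, and none fell. This was 2.7% of the tested members, against 6.78% of all tested genes (3.1% higher and 3.68% lower). The median log2 difference of the members was -0.07, against -0.03 over all tested genes. Above 0 lay 14 of 37 members and 5324 of all 12500 genes. The groups overlapped for every member, while over all tested genes 3.05% did not overlap (1.26% with PanIN above and 1.79% with PanIN below). The comparisons share lines, so each is described by its own values in the plot of group differences.

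**Figure D2:**
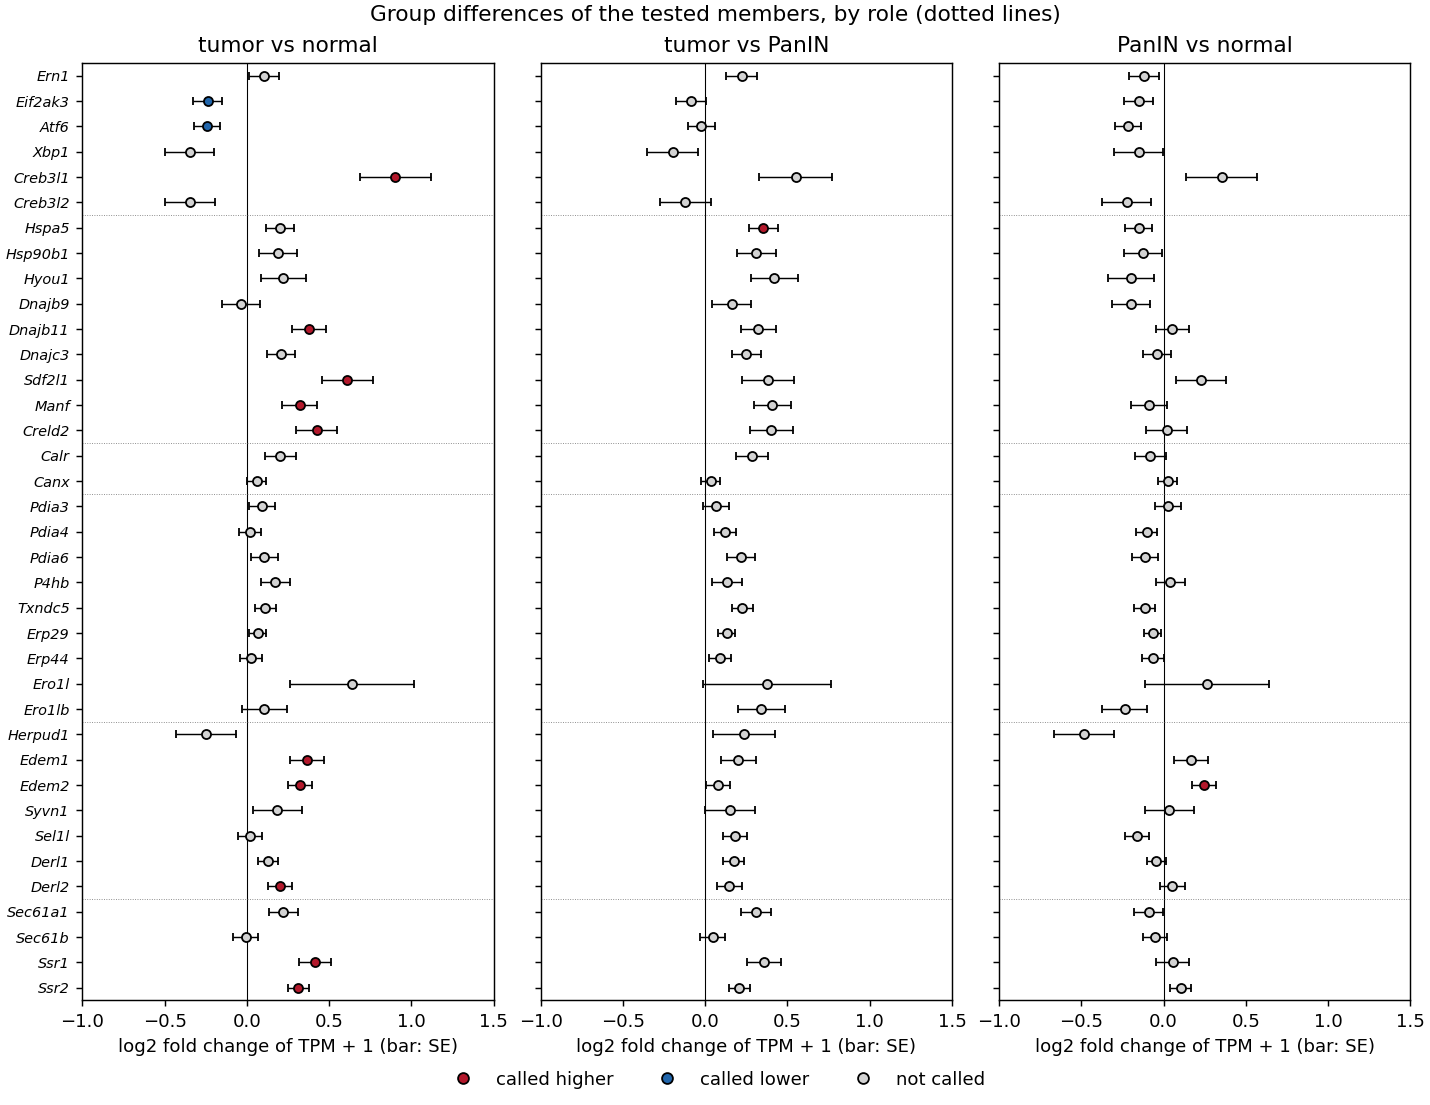
Log2 differences of log2(TPM + 1) with their standard errors (x axis) for the 37 tested members (rows, grouped by role between dotted lines), with tumor vs normal on the left, tumor vs PanIN in the middle and PanIN vs normal on the right; red marks genes called higher, blue genes called lower and grey genes not called. The left panel holds 10 red and 2 blue points, and the other panels hold 1 red point each, Hspa5 and Edem2.

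Among the 6 sensor and transcription factor genes, 3 differed between tumor and normal lines (50%, against 32.2% of all tested genes). No test of a role as a set was made. Atf6 and Eif2ak3 fell and Creb3l1 rose against normal lines, while Ern1, Xbp1 and Creb3l2 were not called, and no gene of this role was called in the other comparisons. Atf6, the sensor that is cut to release a transcription factor, had 16.1 to 21.6 TPM (median 17.95) in tumor lines, 16.2 to 21.4 TPM (median 19.3) in PanIN lines and 20.1 to 24.1 TPM (median 21.9) in normal lines. Tumor 3, 7, 8 and 9 lay below every normal line, and tumor 4 and 5 lay among the normal lines. The tumor-minus-normal difference was called (log2 difference -0.24, SE 0.08, adjusted p = 0.028), but not without tumor 7, 8 or 9 or normal 11 or 12, nor with the identifier series as a block (adjusted p = 0.0531). The PanIN-minus-normal difference was close to it in size and was not called (log2 difference -0.22, SE 0.08, adjusted p = 0.119). Eif2ak3, the PERK kinase gene, had 13.2 to 19.4 TPM (median 17.5) in tumor lines, 17.1 to 18.2 TPM (median 17.8) in PanIN lines and 17.7 to 24.4 TPM (median 18.9) in normal lines. Tumor 3, 5 and 9 lay below every normal line and the groups otherwise overlapped. Its fall in tumor against normal lines (log2 difference -0.24, SE 0.09, adjusted p = 0.0441) was lost in 11 of 19 fits that left out 1 line, with adjusted p up to 0.122, and with the identifier series as a block (adjusted p = 0.0782).

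Ern1, the IRE1 gene, had 6.75 to 9.70 TPM (median 8.75) in tumor lines, 6.03 to 8.53 TPM (median 6.80) in PanIN lines and 6.75 to 8.47 TPM (median 7.60) in normal lines. The groups overlapped, and no comparison of this gene was called (tumor minus normal: log2 difference 0.10, SE 0.09, adjusted p = 0.408; tumor minus PanIN: log2 difference 0.22, SE 0.09, adjusted p = 0.126). Xbp1, the substrate of IRE1, had 199.9 to 428 TPM (median 308) in tumor lines, 300.1 to 408 TPM (median 359) in PanIN lines and 314 to 491 TPM (median 375) in normal lines. Tumor 5, 8 and 9 lay below every normal line, at 199.9, 257 and 253 TPM, while tumor 3, 4 and 7 lay within the normal range. The tumor-minus-normal difference was not called (log2 difference -0.35, SE 0.15, adjusted p = 0.0802). It was called as lower in 4 of 32 alternative fits, among them both scalings named above and the fits without tumor 4 or tumor 7. Gene-level TPM does not separate the spliced from the unspliced Xbp1 mRNA.

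Creb3l1, which encodes a membrane-bound transcription factor of the ATF6 type known from collagen-secreting bone cells, was low in all lines and had the largest called difference of the members. It had 2.28 to 7.50 TPM (median 3.96) in tumor lines, 1.30 to 4.05 TPM (median 2.80) in PanIN lines and 1.25 to 2.74 TPM (median 1.73) in normal lines. All tumor lines but tumor 5 lay above every normal line, and tumor 7 and tumor 3 were the highest, at 7.50 and 6.15 TPM. The tumor-minus-normal difference (log2 difference 0.90, SE 0.21, adjusted p = 0.00488) was called in all 19 fits that left out 1 line. Adding 1 to TPM shrinks log2 differences at such low levels, and the authors' deposited table gives 1.25 for this comparison. Its paralog Creb3l2 ranged between 6.94 TPM in tumor 5 and 21.9 TPM in normal 6 and was not called (log2 difference -0.35, SE 0.15, adjusted p = 0.0838). It was called as lower in 2 of 32 alternative fits, the rescaling without the 11 rows and the fit without tumor 7.

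The 9 Hsp70 and Hsp90 chaperones and their cofactors held the largest called differences outside the transcription factors. Against normal lines 4 rose (Sdf2l1, Creld2, Dnajb11 and Manf) and none fell. This was 44.4% called higher, against 17.8% of all tested genes. In direction 8 of 9 lay above 0, with a median log2 difference of 0.22. Against PanIN lines 1 rose (Hspa5), which was 11.1% of the role, against 0.392% of all tested genes. All 9 lay above 0 there, with a median of 0.35. None was called between PanIN and normal lines, where 3 of 9 lay above 0. Of all 12500 tested genes, 6968, 7586 and 5324 lay above 0 in these comparisons, in the same order, with medians of 0.04, 0.06 and -0.03.

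Hspa5 encodes BiP, the Hsp70 of the ER lumen that also holds the sensors inactive, and carries the ERSE shown above. It had 643 to 855 TPM (median 692) in tumor lines, 497 to 646 TPM (median 545) in PanIN lines and 523 to 693 TPM (median 643) in normal lines. All PanIN lines but PanIN 5 lay below every tumor line, and tumor 5, 8 and 9 lay above every normal line. Hspa5 rose in tumor against PanIN lines (log2 difference 0.35, SE 0.09, adjusted p = 0.0488) and was not called against normal lines (log2 difference 0.20, SE 0.08, adjusted p = 0.0697). The call against PanIN lines was lost in 11 of 19 fits that left out 1 line, with adjusted p up to 0.129, and in 8 of 13 other settings. Hsp90b1 encodes GRP94, the Hsp90 of the ER, and has 2 ERSE matches. It had 426 to 533 TPM (median 521) in tumor lines, 312 to 493 TPM (median 413) in PanIN lines and 349 to 582 TPM (median 433) in normal lines. The ranges overlapped and no comparison was called (tumor minus PanIN: log2 difference 0.31, SE 0.12, adjusted p = 0.099; tumor minus normal: log2 difference 0.19, SE 0.11, adjusted p = 0.214).

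Sdf2l1, a partner of the ER chaperone complex, had 54.8 to 100.3 TPM (median 85.2) in tumor lines, 46.5 to 79.2 TPM (median 60.6) in PanIN lines and 44.8 to 67.1 TPM (median 49.6) in normal lines. Tumor 5, 7, 8 and 9 lay above every normal line, and so did PanIN 4, 5 and 6, whereas PanIN 1, 2 and 3 lay between 46.5 and 51.9 TPM. The rise in tumor against normal lines (log2 difference 0.61, SE 0.15, adjusted p = 0.00682) was the largest among the chaperones. Creld2, a disulfide isomerase-like cofactor, had 35.7 to 59.05 TPM (median 48.1) in tumor lines, 29.4 to 51.5 TPM (median 34.8) in PanIN lines and 32.2 to 39.7 TPM (median 35.3) in normal lines. All tumor lines but tumor 4 lay above every normal line, and PanIN 6, at 51.5 TPM, was the only PanIN line there. Creld2 rose in tumor against normal lines (log2 difference 0.42, SE 0.12, adjusted p = 0.0157).

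Dnajb11, a J-domain cochaperone of BiP with an ERSE-II, had 66.6 to 102 TPM (median 89.5) in tumor lines, 59.7 to 92.5 TPM (median 67.98) in PanIN lines and 59.5 to 74.6 TPM (median 66.7) in normal lines. Again all tumor lines but tumor 4 lay above every normal line, joined by PanIN 6 at 92.5 TPM, and the gene rose in tumor against normal lines (log2 difference 0.38, SE 0.10, adjusted p = 0.01). Manf, a secreted cofactor of BiP, had 72.7 to 114 TPM (median 86.2) in tumor lines, 54.4 to 84.8 TPM (median 67.04) in PanIN lines and 60.3 to 77.9 TPM (median 70.8) in normal lines. Tumor 4 was once more the only tumor line inside the normal range. Its rise (log2 difference 0.32, SE 0.11, adjusted p = 0.0292) was not called without tumor 5, tumor 8 or normal 13, nor with the identifier series as a block (adjusted p = 0.059). The other members of this role were not called: Hyou1, a BiP nucleotide exchange factor, ranged between 44.7 and 88.6 TPM over the lines, Dnajc3 (p58IPK) between 37.4 and 60.5 TPM, and Dnajb9 (ERdj4), a known target of XBP1, between 15.8 and 28.4 TPM. Their tumor-minus-normal log2 differences were 0.22, 0.21 and -0.04.

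**Figure D3:**
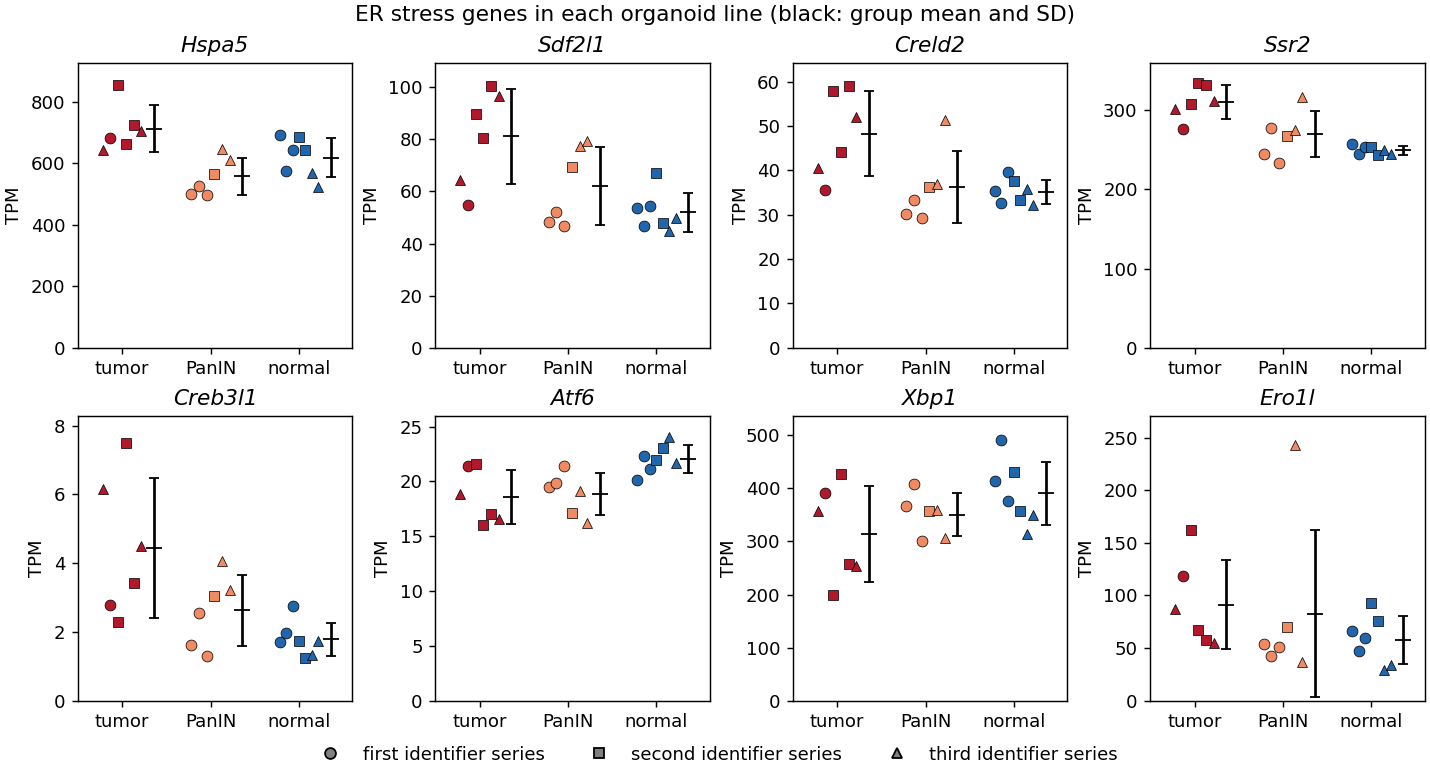
TPM (y axis, from 0) of 8 members in each line, with tumor on the left, PanIN in the middle and normal on the right of each panel; markers show the identifier series (circles first, squares second, triangles for the third), and black bars give the group mean and SD. Hspa5 is lower in PanIN than in tumor lines, Sdf2l1, Creld2, Ssr2 and Creb3l1 are higher and Atf6 is lower in most tumor than normal lines, and Ero1l is dominated by single lines such as PanIN 5 at 243 TPM.

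The lectin chaperones calreticulin (Calr) and calnexin (Canx), which hold glycoproteins during folding, were abundant and not called in any comparison. Calr ranged between 493 and 802 TPM over the lines and Canx between 342 and 429 TPM. Calr lay highest in tumor 9, tumor 8 and tumor 5, and its tumor-minus-normal and tumor-minus-PanIN log2 differences were 0.20 and 0.28, with adjusted p of 0.101 and 0.0786. Canx had the second smallest spread of the members, with a within-group SD of 0.09 on the log2 scale.

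None of the 9 disulfide isomerases and oxidases was called in any comparison. All 9 lay above 0 in tumor against normal lines (log2 differences 0.02 to 0.64) and in tumor against PanIN lines (0.07 to 0.38), where 4 had an unadjusted p below 0.05 in limma. Of all 12500 tested genes, 6968 and 7586 lay above 0 in these comparisons, and 3713 had such a p in tumor against PanIN lines. P4hb, the classic protein disulfide isomerase, ranged between 495 and 768 TPM over the lines, Pdia6 between 172 and 264 TPM, Pdia4 between 149 and 199.7 TPM and Pdia3, which works with the lectin chaperones, between 106 and 155 TPM. Txndc5, the member with a UPRE, ranged between 97.6 and 137 TPM, Erp29 between 98.3 and 121 TPM and Erp44, which returns escaped oxidases to the ER, between 35.6 and 45.4 TPM. Erp29 was the steadiest member, with a within-group SD of 0.08 on the log2 scale.

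Of the oxidases that recharge the isomerases, Ero1l stood apart in its spread and Ero1lb in its low level. Ero1l, which is also known as a target of hypoxia signalling, had 54.7 to 162 TPM (median 76.9) in tumor lines, 36.5 to 243 TPM (median 52.3) in PanIN lines and 28.9 to 93.1 TPM (median 59.2) in normal lines. PanIN 5 and, at 162 and 118 TPM, tumor 5 and tumor 4 were far above the other lines, and normal 12 and 13 were the lowest. Its within-group SD of 0.74 on the log2 scale exceeded that of 98.5% of the tested genes, against a median of 0.16 for the members and 0.20 for all tested genes, and its tumor-minus-normal difference was not called (log2 difference 0.64, SE 0.38, adjusted p = 0.2). Ero1lb, the paralog known from secretory pancreas cells, had only 1.94 to 4.77 TPM over the lines and was not called.

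The degradation role held 3 members that rose in tumor against normal lines among 7 tested (42.9%, against 17.8% of all tested genes). Edem2 was the only member of any role called between PanIN and normal lines. Edem1, which hands misfolded glycoproteins over for degradation, had 26.7 to 37.04 TPM (median 30.3) in tumor lines, 21.1 to 32.2 TPM (median 26.2) in PanIN lines and 19.3 to 26.2 TPM (median 23.8) in normal lines. Every tumor line lay above every normal line (log2 difference 0.37, SE 0.10, adjusted p = 0.0125). PanIN 4, 5 and 6 also lay above every normal line, and PanIN 1, 2 and 3 lay within the normal range. Edem2, which starts mannose trimming of such proteins, had 31.5 to 36.4 TPM (median 33.1) in tumor lines, 28.8 to 37.2 TPM (median 31.3) in PanIN lines and 23.1 to 29.5 TPM (median 27.5) in normal lines. Every tumor line and all PanIN lines but PanIN 3 lay above every normal line. The rise was called in tumor (log2 difference 0.32, SE 0.07, adjusted p = 0.00339) and in PanIN lines (log2 difference 0.25, SE 0.07, adjusted p = 0.0458) against normal lines. The PanIN call was lost in 12 of 19 fits that left out 1 line, with adjusted p up to 0.128.

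Derl2, a derlin of the retrotranslocation machinery, had 33.3 to 40.4 TPM (median 37.4) in tumor lines, 28.9 to 39.8 TPM (median 33.98) in PanIN lines and 28.5 to 34.5 TPM (median 32.9) in normal lines. All tumor lines but tumor 4 lay above every normal line, yet the call (log2 difference 0.20, SE 0.08, adjusted p = 0.0473) was lost in 13 of 19 fits that left out 1 line, with adjusted p up to 0.112. Derl1 ranged between 57.5 and 79.8 TPM and was not called, although it was the 1 member with all tumor lines above all PanIN lines (1.8% of all tested genes did not overlap between these groups, 0.832% with tumor above and 0.968% with tumor below). The tumor-minus-PanIN log2 difference of Derl1 was 0.17, with an adjusted p of 0.0864. Herpud1, a membrane component of the degradation complex with an ERSE-II, had 53.7 to 101 TPM (median 72.1) in tumor lines, 56.5 to 69.01 TPM (median 63.8) in PanIN lines and 58.05 to 140.0 TPM (median 94.2) in normal lines. Normal 7 and normal 5 were the highest, and all PanIN lines lay below the median of the normal lines. Its PanIN-minus-normal difference was not called (log2 difference -0.48, SE 0.18, adjusted p = 0.126). Syvn1 (HRD1), the ubiquitin ligase of the complex, had 2.50 to 5.70 TPM and its partner Sel1l 20.9 to 29.6 TPM over the lines, and neither was called.

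Among the 4 translocon genes, those of the signal sequence receptor rose and those of the channel did not pass the test. In tumor against normal lines 50% of this role rose, against 17.8% of all tested genes. Ssr2, a subunit of this receptor complex beside the channel, had 276 to 334 TPM (median 309) in tumor lines, 234 to 317 TPM (median 271) in PanIN lines and 244 to 257 TPM (median 249) in normal lines. Every tumor line lay above every normal line, and the normal lines spread by less than the tumor lines. The tumor-minus-normal difference had the smallest p of the members (log2 difference 0.31, SE 0.06, adjusted p = 0.00188). Ssr1, another subunit, had 99.7 to 127 TPM (median 113) in tumor lines, 74.4 to 107 TPM (median 85.9) in PanIN lines and 70.8 to 101 TPM (median 87.6) in normal lines. All tumor lines but tumor 4 lay above every normal line (log2 difference 0.41, SE 0.10, adjusted p = 0.00496). Sec61a1, the channel subunit, ranged between 137 and 235 TPM over the lines and was not called (log2 difference 0.22, SE 0.09, adjusted p = 0.0608 between tumor and normal lines), though it was called as higher there in 4 of 32 alternative fits. Sec61b ranged between 237 and 325 TPM, with a tumor-minus-normal log2 difference of -0.01.

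Of the 10 members that rose in tumor against normal lines, Creb3l1, Dnajb11, Sdf2l1, Creld2, Edem1, Edem2, Ssr1 and Ssr2 kept their call in all 19 fits that left out 1 line. Tumor 4 was the lowest tumor line in 9 of these 10 members, and tumor 8 the highest in 5. The same count over all genes called higher was not made. Without tumor 4, 38.9% of all tested genes were called in this comparison, against 32.2% with all lines. Tumor 4 is also the only tumor line of the first identifier series. Within the series, the tumor-minus-normal difference had the direction of the call for 8 of the 12 called members in the first series (tumor 4 against 3 normal lines), for 12 of 12 in the second (3 against 2) and for 12 of 12 in the third (2 against 2). The calls were made from these same lines, so a matching direction within a series is no independent test of them. Series by series, in that order, the median log2 difference of the 37 members was -0.01, 0.15 and 0.18, against -0.05, 0.09 and 0.06 over all tested genes.

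The summed level of the 37 tested members was 5959 ± 281 TPM in tumor lines (SD, n = 6), 5211 ± 508 TPM in PanIN lines (SD, n = 6) and 5408 ± 421 TPM in normal lines (SD, n = 7). These sums use TPM without rescaling. The 11 rows that lack a comparison of the authors took 16.3% to 25.4% of TPM in tumor, 22.6% to 27.0% in PanIN and 23.3% to 28.6% in normal lines. A smaller share in these rows leaves more TPM to all other genes, and its part in the sums was not tested. The highest of the 19 values of a member was in a tumor line for 22 members, in a PanIN line for 5 and in a normal line for 10. The lowest was in a tumor line for 6, in a PanIN line for 17 and in a normal line for 14. Tumor 8 alone was highest in 10 members and PanIN 3 alone lowest in 10. Such counts were not made over all tested genes, so they describe the members' values and mark no trait particular to these genes. Tumor 5 was highest in 4, among them Hspa5 and Manf, and lowest in 4, among them the factor genes Xbp1 and Creb3l2 and the sensor gene Eif2ak3, as the map of deviations shows.

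**Figure D4:**
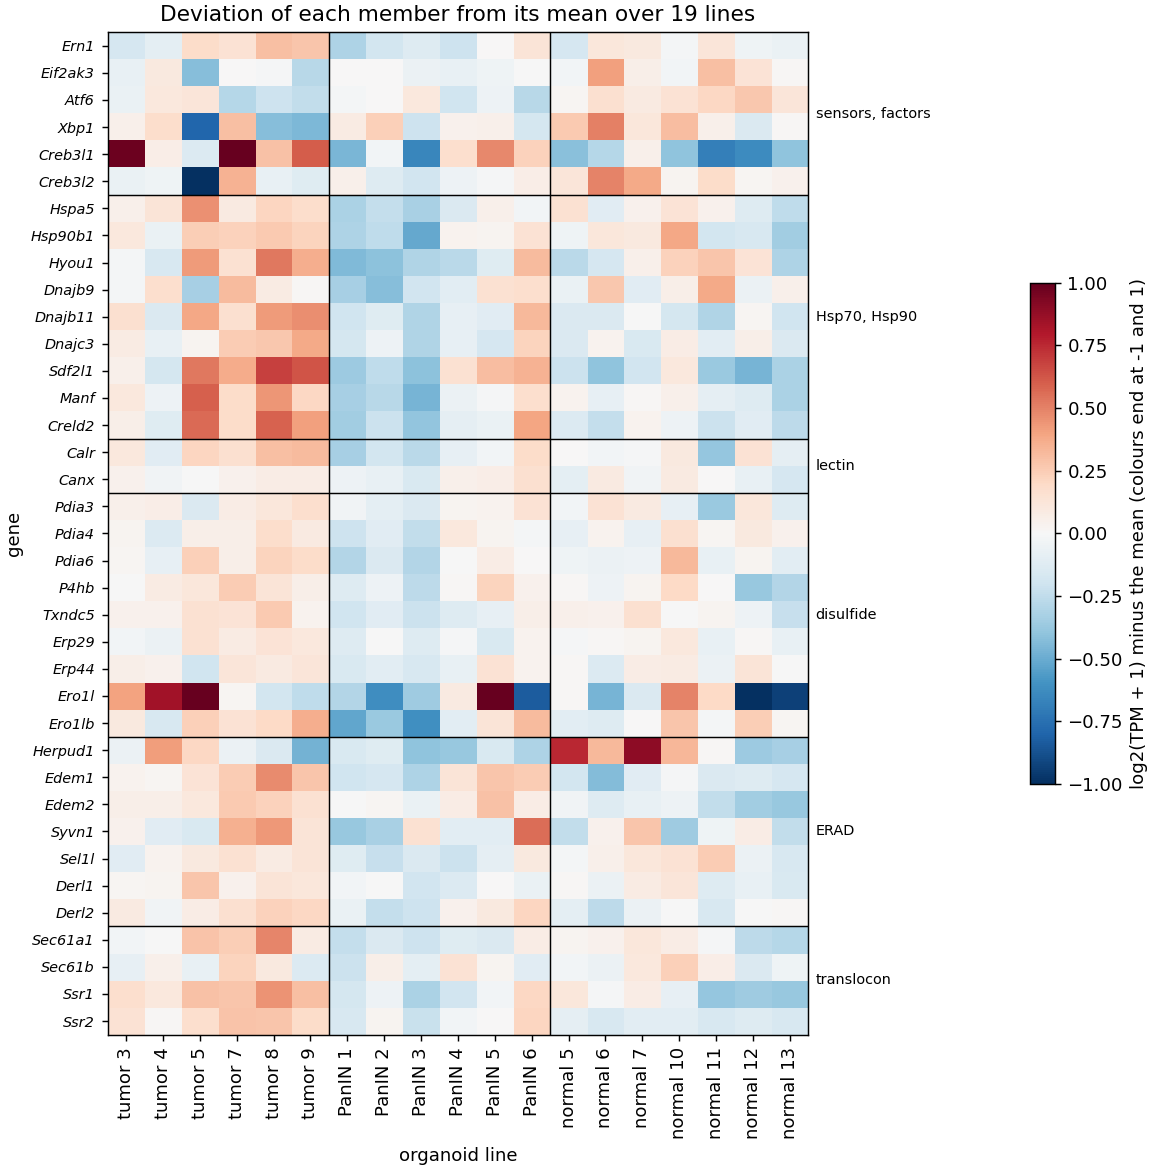
Heat map of log2(TPM + 1) minus its mean over the 19 lines (red higher, blue lower, colours end at -1 and 1) for the 37 tested members in rows, grouped by role, and the lines in columns, with tumor on the left, PanIN in the middle and normal on the right. Chaperone rows are mostly red in tumor lines and blue in PanIN 1 to 3, while tumor 5 is blue in Xbp1 and Creb3l2 and dark red in Ero1l.

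The PanIN group was split. The mean deviation of the members from their averages over all lines, on the log2 scale, lay between 0.02 and 0.21 in the 6 tumor lines, between -0.25 and -0.15 in PanIN 1, 2 and 3, at -0.05 in PanIN 4, at 0.08 and 0.09 in PanIN 5 and 6, and between -0.18 and 0.08 in the normal lines. PanIN 1 to 3 are all female and all of the first identifier series, whereas PanIN 4 to 6 are all male and of the later series, so sex and series cannot be told apart within PanIN lines. Taken by series in the same order, the median tumor-minus-PanIN log2 difference of the members was 0.16, 0.27 and 0.01, against 0.02, 0.06 and 0.06 over all tested genes. There 37, 30 and 22 of the 37 members lay above 0, against 7013, 7080 and 7758 of all 12500 genes. The median PanIN-minus-normal difference of the members was -0.19, -0.07 and 0.15, against -0.07, 0.04 and -0.0048 over all tested genes. There 3, 14 and 32 members lay above 0, against 4285, 7270 and 6174 of all 12500 genes. The Hspa5 and Edem2 calls had the same direction in each of the 3 series, which is no independent test because the calls were made from these same lines. The smallest of these log2 differences were 0.10 for Hspa5 in the third series and 0.06 for Edem2 in the first. Among normal lines, normal 12 and 13 of the third series were the lowest, at -0.11 and -0.18. The tumor-minus-PanIN difference was compared between the sexes as well, in an interaction added after the values were seen. It was called for 6 of 37 members (9.66% of all tested genes): Sdf2l1, Edem1, Ero1lb, Hsp90b1 and Derl2 lay higher in tumor than PanIN lines among females, with male log2 differences of -0.16 to 0.03, and Atf6 lay higher among males and lower among females. For the tumor-minus-normal difference 0 members were called in limma (0.016% of all tested genes, and at an unadjusted p below 0.05 8 members, against 1695 of all 12500 genes). For the PanIN-minus-normal difference 0 members and 0 genes were called in limma (at an unadjusted p below 0.05 3 members, against 712 of all 12500 genes). Female and male PanIN lines differ in identifier series too, as stated above.

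**Figure D5:**
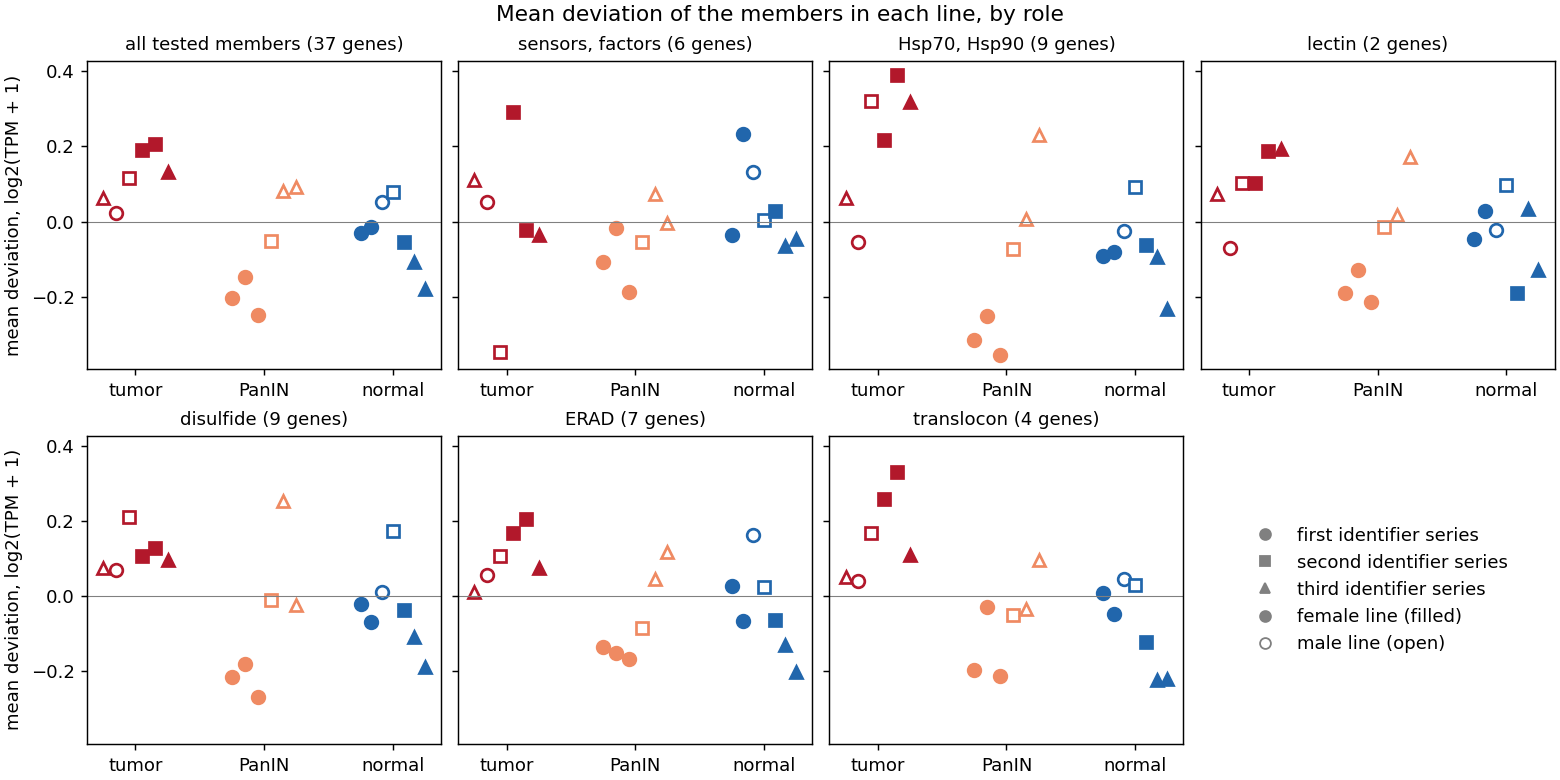
Mean deviation of log2(TPM + 1) from the average over all lines (y axis) for all 37 tested members and for each of the 6 roles, 1 point per line, with tumor left, PanIN in the middle and normal right; shapes mark the identifier series, filled points female and open points male lines. In the panel of all members the 6 tumor points lie above 0, and the 3 filled PanIN circles of the first series lie between -0.25 and -0.15.

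Members with and without a match to ERSE or ERSE-II were set side by side, and Txndc5, with its UPRE, was counted among those without. Of the 11 tested members with ERSE or ERSE-II in the promoter window, 11 lay above 0 in tumor against PanIN lines, with a median log2 difference of 0.28, against 15 of 18 and a median of 0.14 in the members with a window and neither element. Of all 12500 tested genes 7586 lay above 0 there, with a median of 0.06. The members below 0 were Eif2ak3, Xbp1 and Creb3l2. No sensor or factor gene with a window had ERSE or ERSE-II, so the sets compared also differ in role. In tumor against normal lines 2 of the 11 rose (Creld2 and Dnajb11), with a median of 0.19. Of the 18 with neither ERSE nor ERSE-II, 5 rose and 1 fell, with a median of 0.10. Over all tested genes 17.8% rose and 14.4% fell there, with a median of 0.04. In PanIN against normal lines the medians were -0.08 and -0.06, against -0.03 over all tested genes. No test was made of these differences. Among 97 genes with a window from the other ER and chaperone lists below, none had ERSE or ERSE-II and 6 had UPRE.

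Genes that share the ER with the members but lie outside the list were counted in the same fits. In tumor against normal lines, 6 of 21 tested further folding enzymes rose and 2 fell, 3 of 14 further degradation genes rose and 3 fell, 5 of 25 further translocon, signal peptidase and oligosaccharide transfer genes rose and 2 fell, and 3 of 17 retrieval and export genes rose and 1 fell. In that order 28.6%, 21.4%, 20% and 17.6% of the genes rose, against 17.8% of all tested genes, of which 14.4% fell. Their median log2 differences were 0.05, -0.05, 0.13 and 0.10, against 0.04 over all tested genes. Among folding enzymes the 4 smallest p-values were those of Agr2, which helps fold mucins, Rcn1, Tmx1 and Fkbp2. Agr2 had 10.7 to 83.5 TPM (median 26.4) in tumor lines, 4.19 to 12.4 TPM (median 5.91) in PanIN lines and 0.100 to 2.82 TPM (median 0.560) in normal lines. The groups formed steps, with every tumor line but tumor 3 and 7 above every PanIN line and every PanIN line above every normal line, and Agr2 was called higher in all 3 comparisons (tumor minus PanIN 1.99, PanIN minus normal 2.19 on the log2 scale). Rcn1, a calcium-binding protein of the ER, had 0.492 ± 0.353 TPM in tumor lines (SD, n = 6), 0.795 ± 0.717 TPM in PanIN lines (SD, n = 6) and 2.33 ± 0.946 TPM in normal lines (SD, n = 7), and fell in tumor and in PanIN lines against normal lines. Its tumor and PanIN means lay below the 1 TPM of the expression filter, so it may have passed mainly through the normal lines, where it was higher. Agr2 in turn lay mostly below 1 TPM in normal lines and passed the filter through the tumor and PanIN lines.

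In parentheses follow log2 differences between tumor and normal lines. The thioredoxin-like Tmx1 (0.37) and the prolyl isomerase Fkbp2 (0.45) rose in tumor against normal lines. Of the degradation genes, Aup1 (0.47) and the ubiquitin-conjugating Ube2j2 (0.36) rose, and the lectin Os9 (-0.30) fell. Of the translocon list, the signal peptidase genes Spcs3 (0.43) and Sec11c (0.32) and the oligosaccharyltransferase gene Ostc (0.26) rose, and Tusc3 (-0.58), another oligosaccharyltransferase subunit, fell. Of the trafficking list, the cargo receptor genes Lman2 (0.29), Tmed2 (0.20) and Surf4 (0.25) rose. Kdelr3, a receptor that retrieves ER residents such as BiP from the Golgi, fell in tumor (log2 difference -0.86, SE 0.18, adjusted p = 0.00214) and in PanIN lines (log2 difference -0.60, SE 0.18, adjusted p = 0.0478) against normal lines, with 7.39 to 16.5 TPM in tumor, 8.61 to 17.1 TPM in PanIN and 18.2 to 25.2 TPM in normal lines. Of 8 tested further regulators of the response, 1 was called (12.5%, against 32.2% of all tested genes), Wfs1, which fell in tumor against normal lines (-0.36).

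Of the branch downstream of PERK, 3 of 12 genes rose (Asns, Ppp1r15b and Atf4) and 1 fell (Cebpb) in tumor against normal lines. This was 33.3% called, near the 32.2% of all tested genes. Atf4, the transcription factor of this branch, had 169 to 400.5 TPM (median 229) in tumor lines, 149 to 193 TPM (median 164) in PanIN lines and 139 to 223 TPM (median 158) in normal lines. Tumor 5 was the highest line, and the rise (log2 difference 0.51, SE 0.15, adjusted p = 0.0182) is one of mRNA, while this factor is known to be controlled largely by translation. Asns, the asparagine synthetase gene that ATF4 activates, had 83.8 to 261 TPM (median 110.0) in tumor lines, 52.9 to 143 TPM (median 65.3) in PanIN lines and 42.2 to 68.6 TPM (median 59.9) in normal lines, and every tumor line lay above every normal line (log2 difference 1.18, SE 0.25, adjusted p = 0.00233). Ddit3 (CHOP), which promotes death under lasting stress, had 5.72 to 34.04 TPM (median 9.14) in tumor lines, 3.96 to 26.7 TPM (median 6.46) in PanIN lines and 3.92 to 16.3 TPM (median 9.69) in normal lines, and its levels overlapped between the groups. Trib3, a pseudokinase gene downstream of ATF4 and CHOP, had 3.01 to 18.99 TPM (median 6.46) in tumor lines, 1.56 to 11.6 TPM (median 3.69) in PanIN lines and 1.36 to 6.39 TPM (median 4.75) in normal lines. Neither was called (adjusted p = 0.55 and 0.141 between tumor and normal lines). Tumor 5 and PanIN 5 were the highest lines of their groups in Ddit3, Trib3, Asns, Atf4 and Ero1l alike.

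Sesn2, a stress gene that both ATF4 and p53 are known to activate, had its highest group median in PanIN lines. It had 14.3 to 17.5 TPM (median 15.7) in tumor lines, 21.5 to 28.9 TPM (median 26.6) in PanIN lines and 8.21 to 23.1 TPM (median 15.8) in normal lines. Every tumor line lay below every PanIN line (log2 difference -0.67, SE 0.16, adjusted p = 0.0469), and Sesn2 rose in PanIN against normal lines (log2 difference 0.67, SE 0.16, adjusted p = 0.0139). Stc2, a secreted stress protein, fell in PanIN against normal lines (log2 difference -0.87, SE 0.23, adjusted p = 0.0279).

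Chaperones of the cytosol and mitochondria were counted for comparison. In tumor against normal lines 12 of 23 tested rose and 1, the small heat shock protein gene Hspb1, fell, with a median log2 difference of 0.23. This was 56.5% called, against 32.4% of the ER members and 32.2% of all tested genes, and no test of the difference between lists was made. The 4 with the smallest p, with their log2 differences, were the mitochondrial chaperonin genes Hspe1 (0.57) and Hspd1 (0.75), the mitochondrial Hsp70 gene Hspa9 (0.41) and the cytosolic chaperonin subunit gene Cct5 (0.34). Hspd1 had 357 to 733 TPM (median 601) in tumor lines, 307 to 612 TPM (median 367) in PanIN lines and 287 to 381 TPM (median 343) in normal lines, and tumor and normal lines overlapped. None of the 23 was called in the comparisons of PanIN lines, at an unadjusted p below 0.05 in 12 (tumor minus PanIN) and 0 (PanIN minus normal). Of all 12500 tested genes, 3713 and 2377 had such a p in limma, and 1.6% and 6.78% were called.

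The authors' deposited table gives its own comparisons for these genes. In tumor against normal lines the authors' deposited table lists 9 members as higher and 2 as lower at an adjusted p below 0.05 (32.5% of its genes with a value, 16.2% higher and 16.4% lower), all 11 of which are among the 12 called above. The remaining one is Derl2, at an adjusted p of 0.773 in the authors' deposited table. In tumor against PanIN lines the authors' deposited table lists 5 members as higher (11.7% of its genes, 5.1% higher and 6.55% lower), Hspa5 (0.29 on the log2 scale), Manf (0.35), Txndc5 (0.17), Sec61a1 (0.26) and Ssr1 (0.29). In PanIN against normal lines the authors' deposited table lists Edem2 alone (0.29; 10.5% of its genes, 5.53% higher and 4.94% lower).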

How the data were processed

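Total RNA (ribosomal RNA removed, strand-specific libraries, per the labels' protocols) of 19 organoid lines was sequenced. The deposited table gives TPM per gene in each line, which the authors made with RSEM 1.2.11 and Bowtie 1.1.0 on build mm9, per the submitters' processing notes. Which gene models were used is not stated in these sources. The same table holds the authors' comparisons, per the file headers: a base mean (a mean signal, not used here), a log2 fold change, its standard error and test statistic (unit score) and a p-value. DESeq2 1.4.1 and DESeq are named for these in the submitters' processing notes. TPM keeps no read depth, so no count model, counting interval or floor was used, and low genes are less certain than high ones.

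Lines were grouped by their titles, and 0 columns belonged to other samples. Lines were compared on the scale of log2(TPM + 1) by limma (version 3.58.1, under R 4.3.3; linear model over all 19 lines, moderated variances with a trend, genes at 1 TPM or more in at least 6 lines, Benjamini-Hochberg adjustment within each comparison over all 12500 genes, called below 0.05). Every p printed as adjusted comes from that test unless the authors' table is named. The scripts were tested on simulated data first. The members and gene lists were chosen with earlier results of these data known, so none of them is an independent test. Values are given by group for called members, Hspa5, Hsp90b1, Xbp1, Atf6, Ern1, Eif2ak3 and Derl3, otherwise as ranges. Up to 4 called genes per further list and comparison are named, by smallest p, with Ddit3, Atf4 and Trib3. Herpud1, Ero1l, Agr2, Asns, Sesn2 and Hspd1 were given in more detail after their values were seen. Line numbers named the lines and did not pair them: where 2 groups share a number, the deviations from the group means correlated with r between -0.31 and 0.25. Alternatives were other pseudocounts, filters, scalings, covariates and blocks, and each line left out. An allele carried by the mice of the tumor and PanIN lines is not reported here. Promoters came from RefSeq (GRCm38.p6), with Ero1l and Ero1lb matched through a synonym.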

Additional observations from a re-analysis of the deposited data

Results flagged for a closer look

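In 7 of 114 groups of lines (38 members in 3 groups), 1 line stood apart from the others by Dixon's criterion, which chance meets in about 1 in 20 groups. PanIN 6 accounted for 4 of them, each time as the highest PanIN line: Hyou1 at 76.33 TPM (others 44.74 to 55.97 TPM), Dnajb11 at 92.49 TPM (others 59.71 to 69.46 TPM), Creld2 at 51.45 TPM (others 29.36 to 36.99 TPM) and Sec61a1 at 175.63 TPM (others 141.65 to 153.9 TPM). PanIN 6 is also the line without which 16 members were called in tumor against PanIN lines. PanIN 5 stood apart for Ero1l, at 243.13 TPM (others 36.49 to 69.78 TPM). Normal 10 stood apart for Pdia6, at 264.4 TPM (others 196.18 to 214.57 TPM). Tumor 5 stood apart as the lowest tumor line for Erp44, at 35.58 TPM (others 42.39 to 44.66 TPM).

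For 6 members the tumor-minus-PanIN difference differed between the sexes by an interaction term in limma, given here as the log2 difference in males minus that in females. Sdf2l1 had -1.04 (adjusted p = 0.0117): female tumor lines averaged 92.5 TPM and female PanIN lines 48.9 TPM, while male tumor lines averaged 69.6 TPM and male PanIN lines 75.2 TPM. Edem1 had -0.72 (adjusted p = 0.0101), with 33.6 TPM in female tumor and 22.4 TPM in female PanIN lines, and 27.6 TPM in male tumor and 31.0 TPM in male PanIN lines. Hsp90b1 had -0.57, Derl2 -0.45 and Ero1lb -0.79. Atf6 had the opposite sign, at 0.51 (adjusted p = 0.0243), with 16.5 TPM in female tumor and 20.3 TPM in female PanIN lines, and 20.6 TPM in male tumor and 17.5 TPM in male PanIN lines. The 3 female PanIN lines are all of the first identifier series and the 3 male ones are not, so sex and series cannot be told apart in this comparison.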

How the results depend on the processing

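No called member changed direction under any of the alternatives run. In tumor against normal lines 12 members were called, and 8 to 12 in the settings that kept all lines, other than the replicate block (the line number as a block, although the numbers do not pair the lines), with 0. Leaving out 1 line gave 8 (without tumor 8, with 21.3% of all tested genes called) to 16 (without tumor 4, with 38.9%). In tumor against PanIN lines the 1 call became 0 with the identifier series as a block, median-of-ratios scaling, no filter, no variance trend, only the 2 groups compared, a pseudocount of 0.1, the replicate block and, added after the data were seen, without the first identifier series. Leaving out 1 line gave 0 to 16. In PanIN against normal lines the 1 call became 2 (Edem2 higher, Herpud1 lower) with the identifier series as a block and 0 with no variance trend, only the 2 groups compared or sex as a covariate. The replicate block there left 1, with Herpud1 lower and Edem2 not called. Leaving out 1 line gave 0 to 1. The causes were not tested. Creb3l1, Dnajb11, Sdf2l1, Creld2, Edem1, Edem2, Ssr1 and Ssr2 kept their tumor-against-normal call in every setting they were tested in but the replicate block (31 settings for Creb3l1, which the filter at 5 TPM removes, and 32 for the others), while over 32 settings Manf and Atf6 lost it in 7 each, Eif2ak3 in 17 and Derl2 in 21. Edem2 in PanIN lines lost its call in 16 and Hspa5 in 19. TPM gives no read depth, so the precision of low genes such as Creb3l1 and Ero1lb cannot be stated.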
